A study of Saccharomyces cerevisiae with 21 samples.

Results

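Signals of 34 nuclear genes for the respiratory chain and ATP synthase were followed in the budding yeast Saccharomyces cerevisiae through drying, storage as dry cells and rewetting. They comprise 3 NADH dehydrogenase genes, 9 of complex III, 7 of complex IV, 13 subunit genes of ATP synthase and 2 for the peptides that inhibit it. Each gene was taken by its symbol in the array's annotation and is represented by its brightest probe set that names it alone. All 34 were found, out of 5656 genes with such a probe set.

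The respiratory chain passes electrons from food molecules to oxygen and stores the energy as a proton gradient across the inner mitochondrial membrane, which ATP synthase uses to make ATP. Budding yeast has no proton-pumping complex I. In its place single-protein NADH dehydrogenases hand electrons to ubiquinone, one facing the matrix and the others facing the space outside the inner membrane. Complex III carries electrons on to cytochrome c and complex IV from there to oxygen. Growth on glucose represses many of these genes in this yeast, and most of their subunits are made from nuclear genes while a few core ones come from the mitochondrial genome.

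RNA was hybridised to 21 Affymetrix YG_S98 arrays, 3 for each of 7 groups. All groups were of the diploid laboratory strain BY4743, of the S288C background, a strain with deletions at HIS3, LEU2 and URA3. Every culture was grown in glucose-based YPD medium at 30 °C to an absorbance of 0.8 at 600 nm and then suspended in YPD diluted 20-fold at 22 to 25 °C. Control cells were taken at that point. The 50% dry cells were taken after 18 h of drying in dishes of 15 ml, and the dry cells after 42 h of drying and 72 h at 20% relative humidity. The remaining groups were dry cells returned to the diluted medium for 15, 45, 90 or 360 min, with the contents of the plates pooled. The labels do not state whether the 3 arrays of a group came from separate cultures, so p-values measure the spread between these samples, which may be technical. In RNA from a whole culture, fewer cells with a transcript and less of it per cell cannot be told apart.

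Levels are given as normalised signal, the linear probe-set signal after quantile normalisation of the 21 arrays. Differences are on the log2(signal + 17.74) scale, ± the standard error (SE), and n is 3 arrays per group throughout. A gene is said to have risen or fallen only where limma gave a Benjamini-Hochberg adjusted p under 0.05 over all 9275 probe sets and the change was at least 2-fold. The SE rests on the spread over all groups. Replicate arrays correlated at 0.967 to 0.977 at 360 min and at 0.984 to 0.992 in the other 6 groups, and the array medians of the deposited signal ran from 141.2 to 207.3. The 3 control arrays formed a hybridization run of their own, as did the 90 min and the 360 min arrays, so for these groups the run and the condition cannot be told apart. Of the deleted genes URA3 had deposited signals of 0.5 to 5.8 and LEU2 of 6.0 to 108 over the 21 arrays, while HIS3, which is deleted only in part in this background, read 806 to 874 on the control arrays. An F test in limma across the 7 groups called 34 of 34 genes, the highest Benjamini-Hochberg adjusted p being 0.0102 for QCR8, against 82.5% of all probe sets.

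In 50% dry cells, 6 of the 34 genes had risen relative to control cells and 0 had fallen, at a median difference of 0.50 over the 34 and of -0.02 over all probe sets. Of all probe sets, 13.1% rose and 13.9% fell in this comparison. The 6 were NDE2, COX7, INH1, COX13, QCR10 and COX8, with adjusted p from 5.55e-16 to 7.06e-06 by limma. The 50% dry cells had spent 18 h in the diluted medium at 22 to 25 °C, whereas control cells had just left full medium at 30 °C, so that time and the loss of water cannot be told apart. The log2 signal of the 3' minus the 5' probe set of the actin gene ACT1, a sign of RNA quality, was 0.76 ± 0.26 (SD) in 50% dry cells and -0.57 ± 0.33 in control cells, and its part in the differences was not tested.

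The NADH dehydrogenases did not move together. NDE2 encodes one of the 2 external enzymes, which oxidise NADH of the cytosol. It had normalised signals of 8224, 7980 and 7826 in 50% dry cells, against 203, 259 and 202 in control cells. The groups lay far apart, and the rise was 33.8-fold (5.08 ± 0.14). NDE1, the other external enzyme, had 7702, 7295 and 5621 in 50% dry cells, against 5629, 5873 and 5797 in control cells. Its groups overlapped, with a difference of 0.24 ± 0.12 and an adjusted p of 0.0881 by limma. NDI1, the enzyme that faces the matrix, had 1656, 1706 and 1327 in 50% dry cells, against 2167, 2150 and 2090 in control cells. All 3 dried samples were lower, but the difference of -0.45 ± 0.10 was under 2-fold. The log2 ratio of NDE2 to NDE1 within an array was 0.09, 0.13 and 0.48 in 50% dry cells, against -4.68, -4.41 and -4.73 in control cells. The ratio changed by 4.84 ± 0.16, with no overlap between groups. All pairs set against each other here were chosen after their values were seen, so the ratios are descriptions and no test is read from them.

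**Figure D1:**
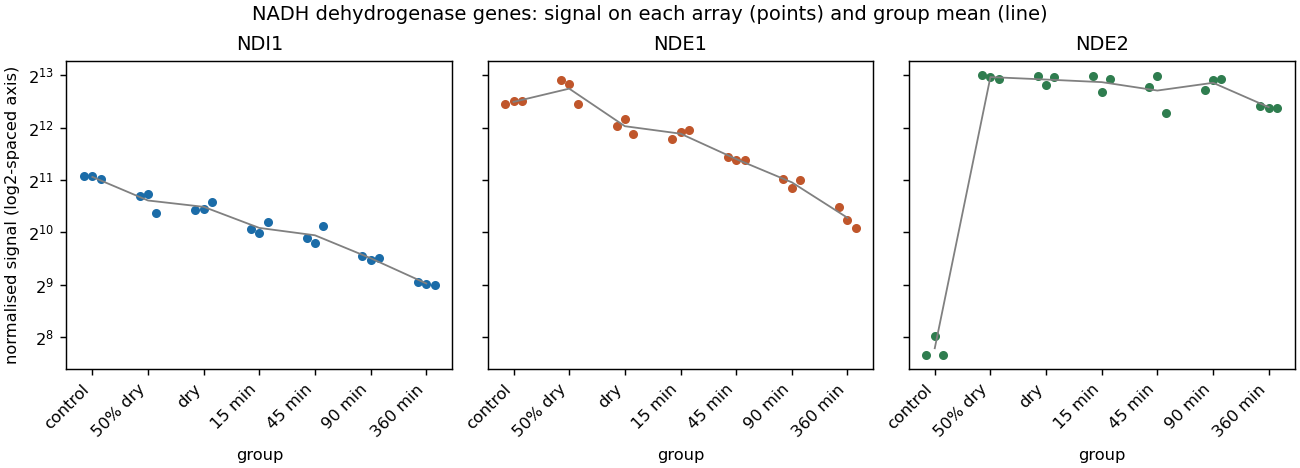
Normalised signal of NDI1, NDE1 and NDE2 (log2-spaced vertical axis) on each array, by group along the course; points are arrays and lines join the group means (n = 3). NDE2 sits near 200 in control cells and at 4993 or above in every later sample, while NDI1 and NDE1 end at 511 to 533 and 1093 to 1430 at 360 min.

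Complex IV held 3 of the 6 rises, COX7, COX8 and COX13, and all 7 of its genes had a positive difference, at a median of 0.93. These genes encode the small nuclear subunits that surround the catalytic core made in the mitochondrion. COX13 had 3356, 3145 and 2637 in 50% dry cells, against 1277, 1179 and 1130 in control cells. The groups were well separated, at 1.33 ± 0.10, but with median-centred arrays the difference was 0.95 and not called. COX7 was then the only rise in complex IV. COX7 had 4372, 4261 and 5025 in 50% dry cells, against 990, 809 and 1627 in control cells. The 3 dried samples were close together and the control samples spread widely. The rise of 2.04 ± 0.23 has the largest SE of the 6, which rests on the spread over all groups. COX8 had 4468, 3977 and 4151 in 50% dry cells, against 1854, 2532 and 1937 in control cells. The groups did not overlap, and at 1.00 ± 0.14 the difference lay at the 2-fold limit. It came to 0.93 without control replicate 1, to 0.96 without control replicate 3, to 0.95 without 50% dry replicate 1, to 0.97 without any one of the 360 min arrays, and just under 1.00 without 45 min replicate 1 or 90 min replicate 1. It was not called in those 8 fits, nor in the deposited scaling (0.80). COX12, COX9, COX6 and COX4 had differences of 0.91, 0.93, 0.86 and 0.43, each under 2-fold. COX9 passed, at 1.17, when 50% dry replicate 3 was left out.

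In complex III only QCR10, for a small accessory subunit, rose in 50% dry cells, out of 9 genes with a median of 0.49. It had 2207, 2028 and 2669 in 50% dry cells, against 1018, 1155 and 1011 in control cells. Every dried sample was above every control sample, at 1.10 ± 0.13. The difference was 0.99 without 50% dry replicate 3 and 0.95 in the deposited scaling, both just under the 2-fold limit. COR1, a core protein, came to 0.85 ± 0.11 and QCR9, another small subunit, to 0.69 ± 0.12. The iron-sulphur protein RIP1 gave 0.52, the subunits QCR7 and QCR8 gave 0.49 and 0.48, and cytochrome c1, CYT1, gave 0.21. QCR2, the second core protein, had -0.21 and QCR6, the acidic hinge protein, -0.00. None of these 8 reached 2-fold. CYT1 alone among them changed sign with the scaling, at -0.05 with median-centred arrays.

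None of the 13 ATP synthase subunit genes rose or fell in 50% dry cells (limma). Of the 34 genes, 27 had an adjusted p under 0.05 and 27 an unadjusted p under 0.05. Most of their differences that stopped short of a call were thus stopped by their size. Of all 9275 probe sets 5322 (57.4%) were under 0.05 by adjusted p and 5635 by unadjusted p. The subunit genes had a median difference of 0.37 and a range of -0.80 for ATP19 to 0.79 for ATP4. ATP4, ATP17, ATP7, ATP1, ATP15, ATP18 and ATP14 had values of 0.79, 0.77, 0.69, 0.51, 0.44, 0.42 and 0.37, and ATP2, for the catalytic beta subunit, had -0.33. ATP16, for the delta subunit of the central stalk, had -0.26. ATP3, ATP5 and ATP20 came to 0.18, 0.15 and -0.13, and the sign of ATP5 (-0.09 with median-centred arrays) and of ATP20 (0.01 in the deposited scaling) depended on the scaling.

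The inhibitor gene INH1 did rise. Its product binds the catalytic head of ATP synthase and blocks ATP hydrolysis when the membrane potential fails. It had 2779, 2580 and 3086 in 50% dry cells, against 687, 759 and 682 in control cells. The groups were far apart, and the rise was 3.89-fold (1.96 ± 0.10). Relative to ATP1, the gene of the alpha subunit in that head, INH1 changed by 1.45 ± 0.18 within arrays. STF1, the related second inhibitor, had 4000, 4745 and 3260 in 50% dry cells, against 2942, 2167 and 2395 in control cells. Its groups did not overlap, but 0.67 ± 0.15 is under 2-fold.

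The step to dry cells asks what changed between 50% dry cells and cells stored dry. No member was called: 0 of 34 rose or fell, against 8.11% of all probe sets called in either direction, and the median difference was -0.08. By unadjusted p 10 of the 34 were under 0.05, and 7 by adjusted p, all under 2-fold by limma. Of all 9275 probe sets 4024 were under 0.05 by unadjusted p and 3258 (35.1%) by adjusted p. The nearest to a fall was NDE1, which had 4192, 4601 and 3746 in dry cells, against 7702, 7295 and 5621 in 50% dry cells. Every dry sample was lower, at -0.71 ± 0.12. The largest positive value belonged to QCR6, with 1587, 1743 and 1693 in dry cells, against 1151, 1096 and 1226 in 50% dry cells. Its dry samples were all higher, at 0.53 ± 0.09. INH1 came to -0.35 ± 0.10 and NDE2 to -0.05 ± 0.14. Only one dry array shared a hybridization run with the 50% dry arrays, and within that run the median over the 34 was -0.11, with 31 of 34 signs as over all arrays.

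Dry cells set against the same control arrays gave 4 rises, NDE2 at 5.03 ± 0.14, COX7 at 2.01 ± 0.23, INH1 at 1.61 ± 0.10 and COX13 at 1.27 ± 0.10, and 0 falls. The median was 0.54, and 17.5% of all probe sets rose and 17.5% fell. This comparison shares its control arrays with the one above, so the lists are not independent. With median-centred arrays 3 rises were left, since COX13 came to 0.79. QCR10 came to 0.93 ± 0.13, and passed at 1.02 without dry replicate 3. COX8 came to 0.84 ± 0.14. Of the ATP synthase subunits ATP15, for the epsilon subunit, was at 0.65 ± 0.07, ATP2 at -0.65 ± 0.10 and ATP19 at -0.79 ± 0.20, all short of 2-fold.

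**Figure D2:**
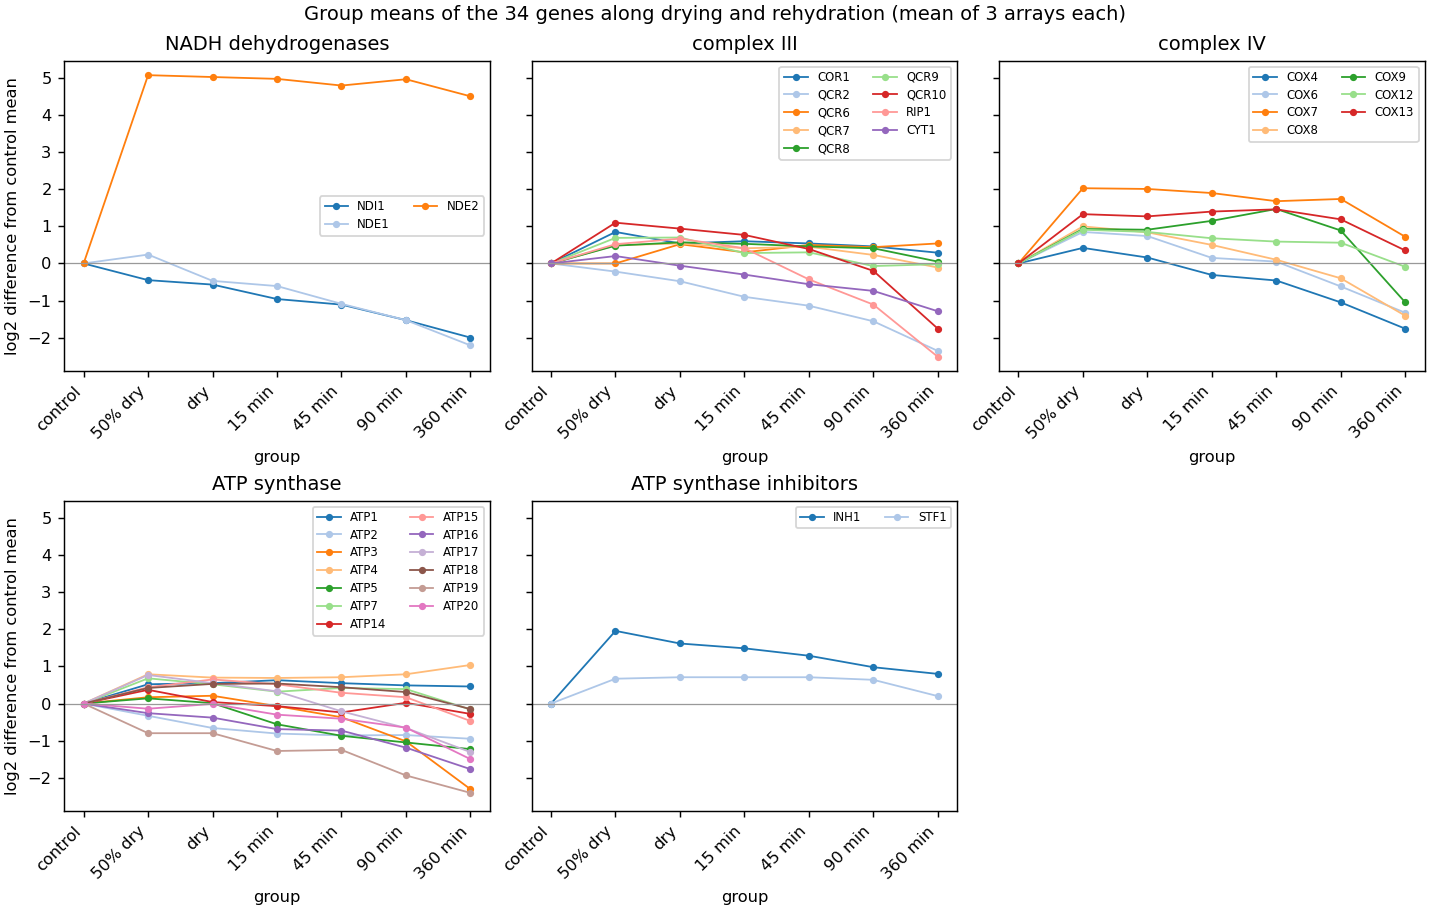
Difference of each gene's group mean from its control mean (log2, vertical axis) by group along drying and rehydration, one panel per class; each point is the mean of 3 arrays. NDE2 stands apart from NDI1 and NDE1, COX9 stays high up to 90 min and then drops, and ATP4 ends at 1.04 while ATP3 ends at -2.31.

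During the first 90 min of rehydration no member was called in any single step. Between 15 min and dry cells 0 of 34 were called, at a median of -0.16, against 0.119% of all probe sets. The same count of 0 came from 45 min against 15 min, where the median was -0.11 and 0.0755% of all probe sets were called, and from 90 min against 45 min, at -0.23 and 0.173%. By unadjusted p, limma put 13, 10 and 17 of the 34 under 0.05 in those steps. Of all 9275 probe sets 1140, 1176 and 1699 were under 0.05. By adjusted p the members under 0.05 numbered 1 (QCR2, -0.42), 1 (RIP1, -0.84) and 8, beside 72, 95 and 436 of all probe sets. The medians over all probe sets lay at 0.01, -0.00 and 0.00. The sign of the first 2 medians over the 34 rests on the scaling, since median-centred arrays gave 0.04 and 0.03. Relative to all probe sets those medians were -0.01 and -0.02 in both the deposited and the centred scaling, and -0.22 in both at 90 min against 45 min. Within the hybridization runs that held both groups of a step, the median over the 34 was -0.20 in 15 min against dry cells and -0.05 in 45 min against 15 min.

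The steps added up. Across 90 min against dry cells, a comparison added after the values were seen, 11 of 34 members had fallen and 0 had risen, where 2.56% of all probe sets fell and 2.09% rose. They were RIP1 at -1.78 ± 0.11, COX6 at -1.35 ± 0.15, COX8 at -1.25 ± 0.14, ATP3 at -1.24 ± 0.09, COX4 at -1.22 ± 0.12, ATP17 at -1.20 ± 0.13, ATP19 at -1.15 ± 0.20, QCR10 at -1.14 ± 0.13, QCR2 at -1.08 ± 0.08, NDE1 at -1.06 ± 0.12 and ATP5 at -1.05 ± 0.17. ATP5, whose product joins the catalytic head to the stator stalk, was at -0.83 and not called without 90 min replicate 1. The count depended on the scaling, with 10 falls in the deposited scaling and 4 with median-centred arrays. Of all 9275 probe sets 389 and 176 fell under those scalings. In the deposited scaling NDE1 came to -0.79 and ATP3 to -0.83. The ACT1 gap was 2.24 ± 0.24 (SD) at 90 min and 0.94 ± 0.03 in dry cells, and its part in these falls was not tested.

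Between 90 and 360 min, 6 of 34 fell and 0 rose, where 3.07% of all probe sets fell and 3.82% rose, and the median over the 34 was -0.55. The falls numbered 8 in the deposited scaling, where QCR2 and COX13 passed at -1.09 and -1.07, and 5 with median-centred arrays. Under those scalings 521 and 216 of all 9275 probe sets fell. The falls among the 34 numbered 4 with 50% of the median added to each signal. The largest fall was that of COX9, which had 501, 560 and 739 at 360 min, against 2697, 2157 and 2128 at 90 min. The arrays did not overlap, and the fall was 3.82-fold (-1.94 ± 0.19). Before it, COX9 had a mean of 2361 ± 217 (SD) in dry cells, 2812 ± 581 at 15 min, 3505 ± 645 at 45 min and 2327 ± 320 at 90 min. QCR10 followed at -1.56 ± 0.13, RIP1 at -1.41 ± 0.11 and ATP3 at -1.29 ± 0.09. COX7 fell by 1.02 and COX8 by 1.01 on the log2 scale, at the limit. COX7 was -0.93, -0.94 and -0.85 without 90 min replicate 2, 90 min replicate 3 and 360 min replicate 2. COX8 was -0.85, -0.96 and -0.98 without 90 min replicate 3, 360 min replicate 2 and 360 min replicate 3, and neither gene was called in those fits. ATP20, at -0.85, passed at -1.06 without 360 min replicate 2.

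By 360 min, 18 of the 34 genes had fallen relative to dry cells and 0 had risen, against 11.7% of all probe sets that fell and 11.4% that rose. The median difference was -1.17 over the 34 and -0.00 over all probe sets. The scaling of the arrays moved the median of all probe sets to -0.20 with the deposited values and to 0.27 with median-centred arrays. The median of the 34 minus that of all probe sets was then -0.94 in both, and the falls numbered 18 and 16, with 1 rise in the centred arrays (NDE2). The share of calls that were rises among all probe sets was 49.4%, 33.5% in the deposited scaling and 69.5% with median-centred arrays. Of all 9275 probe sets 1717 fell in the deposited scaling and 750 with median-centred arrays. The 18 adjusted p-values from limma ran from 1.11e-13 to 0.000106.

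In complex III 4 of 9 genes fell at 360 min, and the differences ran from -3.19 to 0.02. RIP1, the Rieske iron-sulphur protein that takes electrons from ubiquinol, had 461, 497 and 408 at 360 min, against 4372, 4230 and 4252 in dry cells. The groups were far apart and the fall was 9.12-fold (-3.19 ± 0.11), the largest of the 34. QCR10 had 240, 350 and 317 at 360 min, against 2157, 2148 and 1826 in dry cells. That is a fall of 6.49-fold without overlap (-2.70 ± 0.13). QCR2 had 383, 375 and 429 at 360 min, against 1453, 1557 and 1501 in dry cells, a fall of 3.68-fold (-1.88 ± 0.08). CYT1 fell by 1.23 on the log2 scale.

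The 5 others of complex III were not called. COR1, which pairs with QCR2 in the core, had 1280, 1688 and 1522 at 360 min, against 1989, 1808 and 1560 in dry cells. Its groups overlapped, at -0.25 ± 0.11. QCR6 came to 0.02 ± 0.09 (-0.09 in the deposited scaling), QCR7 to -0.66 ± 0.09, QCR8 to -0.52 ± 0.16 and QCR9 to -0.72 ± 0.12. With median-centred arrays COR1, QCR7 and QCR8 came to 0.05, 0.23 and 0.05, so their sign rests on the scaling. Within arrays, the log2 ratio of QCR2 to COR1 was -1.69, -2.12 and -1.79 at 360 min, against -0.45, -0.21 and -0.06 in dry cells, a change of -1.63 ± 0.17. The ratio of RIP1 to COR1 changed by -2.93 ± 0.15.

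In complex IV 5 of 7 genes fell, at a median of -1.92. COX8 had 858, 725 and 740 at 360 min, against 3725, 3987 and 3561 in dry cells. Every 360 min sample lay well below every dry sample, at -2.26 ± 0.14. COX6 fell by 2.07, COX9 by 1.96 and COX4 by 1.92 on the log2 scale. COX7 had 1939, 1480 and 2083 at 360 min, against 4268, 4838 and 4297 in dry cells. Its samples did not overlap and it fell by 1.29 ± 0.23 on the log2 scale, but with median-centred arrays it came to -0.65 and was not called. COX13 and COX12, both peripheral subunits, came to -0.92 ± 0.10 and -0.93 ± 0.09, under 2-fold. COX12 was at 0.06 with median-centred arrays.

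Among the ATP synthase subunits 7 of 13 fell, at a median of -1.12. ATP3, for the gamma subunit that turns inside the catalytic head, had 997, 924 and 973 at 360 min, against 5993, 5835 and 5111 in dry cells. The groups were far apart and the fall was 5.75-fold (-2.52 ± 0.09). The other central stalk genes ATP16 (delta) and ATP15 (epsilon) fell by 1.39 ± 0.13 and by 1.12 ± 0.07 on the log2 scale, though ATP15 came to -0.70 and was not called with median-centred arrays. The catalytic head itself was not called. ATP1 had 2470, 2474 and 2632 at 360 min, against 2759, 2425 and 2878 in dry cells. Its arrays overlapped, at -0.09 ± 0.10, with 0.13 in the deposited scaling and 0.59 with median-centred arrays. ATP2 came to -0.29 ± 0.10.

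Within arrays the log2 ratio of ATP3 to ATP1 was -1.29, -1.40 and -1.42 at 360 min, against 1.11, 1.26 and 0.82 in dry cells. The groups were separate and the ratio changed by -2.44 ± 0.13. The stator stalk was divided too. ATP5 fell by 1.24 ± 0.17 on the log2 scale, whereas ATP4, for subunit b, had 2106, 2120 and 2271 at 360 min, against 1652, 1656 and 1815 in dry cells. On the quantile-normalised values ATP4 was the one member whose 360 min samples all lay above its dry samples, at 0.34 ± 0.11 and under 2-fold. On the deposited signals this held for NDE2 too. ATP7, for subunit d, came to -0.67 ± 0.09. Of the small membrane subunits ATP17, ATP19 and ATP20 fell by 1.85 ± 0.13, by 1.62 ± 0.20 and by 1.49 ± 0.14 on the log2 scale, and ATP18 came to -0.68 ± 0.11.

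ATP14, for subunit h of the stator stalk, has 2 probe sets that disagree. The brighter one, used here, gave -0.32 ± 0.14 at 360 min against dry cells (0.10 with median-centred arrays), with an adjusted p of 0.0529 by limma. The dimmer one gave -1.59 with an adjusted p of 1.87e-10. Against control cells the brighter ATP14 set gave -0.28 at 360 min, the dimmer one -1.85 and their mean -1.06, a call that the brighter set alone did not give. QCR8 also has 2 sets. Its dim second set, at a mean signal of 112, gave -0.92, against -0.52 for the bright one, and neither was called.

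The NADH dehydrogenases again differed from one another at 360 min. NDI1 had 533, 519 and 511 at 360 min, against 1372, 1399 and 1540 in dry cells, and fell 2.70-fold (-1.43 ± 0.10). NDE1 had 1430, 1206 and 1093 at 360 min, against 4192, 4601 and 3746 in dry cells, and fell 3.34-fold (-1.74 ± 0.12). In both genes the samples of the 2 groups were well apart. NDE2 had 5487, 5330 and 5313 at 360 min, against 8103, 7176 and 7980 in dry cells, a difference of -0.52 ± 0.14 that was not called.

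The direction of NDE2 over this interval depends on the scaling. Its deposited signals were 10051, 9086 and 9507 at 360 min, against 5727, 5239 and 6228 in dry cells. On that scale every 360 min sample was higher, at 0.74, and median-centred arrays gave a called rise of 1.20. The log2 ratio of NDE2 to NDE1 within arrays was 1.93, 2.13 and 2.26 at 360 min, against 0.95, 0.64 and 1.09 in dry cells. On the quantile-normalised values the ratio was higher on every 360 min array, at a change of 1.21 ± 0.16. Quantile normalisation does not keep ratios within an array, so the size of this change holds for that scale only. The deposited signals of NDE1 were 1227, 1031 and 939 at 360 min, against 3483, 3717 and 3329 in dry cells. On the deposited scale NDE2 was thus higher and NDE1 lower on every 360 min array.

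The inhibitor genes were not called at 360 min against dry cells. INH1 had 1255, 1279 and 1186 at 360 min, against 2081, 2268 and 2259 in dry cells, at -0.82 ± 0.10. STF1 had 2747, 2852 and 2969 at 360 min, against 3590, 4297 and 4392 in dry cells, at -0.51 ± 0.15. The 360 min samples were lower in both, under 2-fold, and STF1 came to 0.36 with median-centred arrays.

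**Figure D3:**
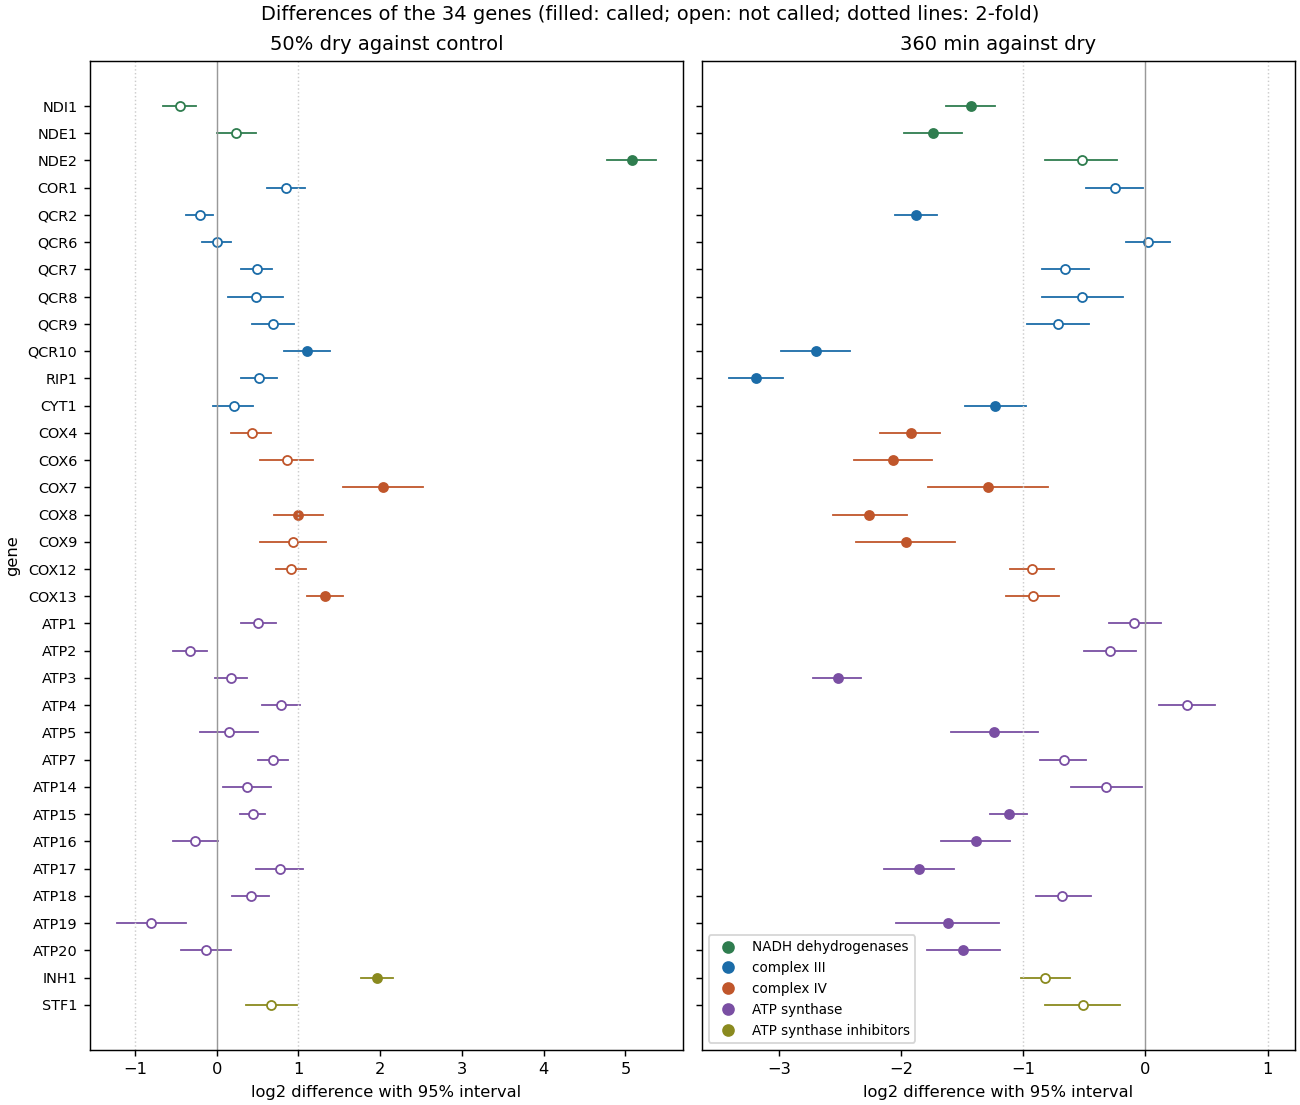
Log2 difference with its 95% interval for each of the 34 genes in 50% dry against control cells (left) and in 360 min against dry cells (right), coloured by class, with filled points for called genes and dotted lines at 2-fold. At left NDE2 stands at 5.08 and most others between 0 and 1, and at right RIP1, QCR10 and ATP3 lie below -2.5 while ATP4 lies at 0.34.

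Relative to the control cells at the start, 2 genes had risen and 16 had fallen at 360 min, where 19.7% of all probe sets rose and 21.4% fell. The median over the 34 was -0.70. These cells share their arrays with the comparison against dry cells. NDE2 stood 22.7-fold higher (4.51 ± 0.14), at 5487, 5330 and 5313, against 203, 259 and 202 in control cells. ATP4 was the other rise, at 1.04 ± 0.11. It came to 0.99 without control replicate 3, to just under 1.00 without 360 min replicate 3 and to 0.93 in the deposited scaling, and was then not called.

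The genes furthest below control were RIP1 at -2.52 ± 0.11, ATP19 at -2.41 ± 0.20, QCR2 at -2.36 ± 0.08, ATP3 at -2.31 ± 0.09, NDE1 at -2.21 ± 0.12 and NDI1 at -2.00 ± 0.10. QCR10 and ATP16 both fell by 1.77, COX4 by 1.76, ATP20 by 1.50, COX8 by 1.41 and COX6 by 1.33 on the log2 scale. ATP17, CYT1 and ATP5 fell by 1.31, 1.28 and 1.23. COX9 fell by 1.04, and came to -0.99 without control replicate 2 and -0.92 without 360 min replicate 1. Complex III and complex IV each had 4 falls, and ATP synthase 6. ATP2, at -0.94, passed at -1.03 without control replicate 2 and at -1.12 in the deposited scaling. INH1, at 0.79 ± 0.10, was still above control in all 3 samples but under 2-fold, and COX7, at 0.72 ± 0.23, passed at 1.01 without control replicate 3.

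Set out over the course, 15 of the 34 genes had their highest group mean in 50% dry cells, 7 in dry cells and 6 in control cells. The lowest mean was that of 360 min for 23 genes and that of control cells for 9. From dry cells on, 19 genes had a lower mean at each successive time, although no single step up to 90 min was called. That count was 17 in the deposited scaling and 8 with median-centred arrays. The genes highest in dry cells numbered 3 and 0 under those scalings, and the genes lowest at 360 min 24 and 18. The range of group means ran from 0.54 to 5.08 on the log2 scale. Pearson's r between members over the 21 arrays had a median of 0.71 over the 21 pairs in complex IV, 0.55 over 36 pairs in complex III and 0.50 over 78 pairs in ATP synthase, with lowest values of 0.27, -0.68 and -0.75. These are descriptions of arrays that share 7 group levels, and carry no test.

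Medians over the genes of a class gave each class its own course. In 50% dry cells the per-array median, relative to the control mean, was 1.09, 0.92 and 0.99 for complex IV, 0.44, 0.59 and 0.50 for complex III and 0.40, 0.34 and 0.26 for ATP synthase. Complex IV was the highest of the 3 classes on each array. At 360 min the values were -0.99, -1.12 and -0.73 for complex IV, -0.36, -0.13 and -0.18 for complex III and -1.16, -0.81 and -0.86 for ATP synthase. By this median complex III lay nearest to control on each array, although it also held RIP1, the gene with the largest fall. No test compared the classes. At 90 min complex IV was at a mean of 0.56 ± 0.07 (SD) and ATP synthase at -0.59 ± 0.11. These medians are of quantile-normalised values and depended on the scaling. Counted with those of the inhibitors and of all members, 22 moved by at least their SD in the deposited scaling and 14 did not. With median-centred arrays 25 moved and 11 did not. In 50% dry against control cells complex IV, complex III and ATP synthase had median differences of 0.77, 0.37 and 0.26 in the deposited scaling. Those with median-centred arrays were 0.58, 0.18 and 0.07.

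The gap between the ends of 3 quality-control transcripts was wider at 360 min than in control cells. For ACT1 its mean stood at -0.57 for the control arrays, at 0.76 for the 50% dry arrays and at 0.94 for the dry arrays, followed by 1.28, 1.79, 2.24 and 2.71 ± 0.17 (SD) at 15, 45, 90 and 360 min. That of SPT15 was 1.48 ± 0.17 in control cells, 1.05 ± 0.66 in dry cells and 2.74 ± 0.28 at 360 min. That of SRB4 was 1.00 ± 0.24 in control cells, 1.61 ± 0.31 in dry cells and 2.36 ± 0.02 at 360 min, below the 2.65 ± 0.26 of 90 min. A wider gap means less signal from the far end of the transcript, and its part in the falls of the 34 genes was not tested. Over the 34 genes the difference at 360 min against dry cells had a Spearman rho of 0.15 with gene length and of -0.01 with the level in dry cells.

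**Figure D4:**
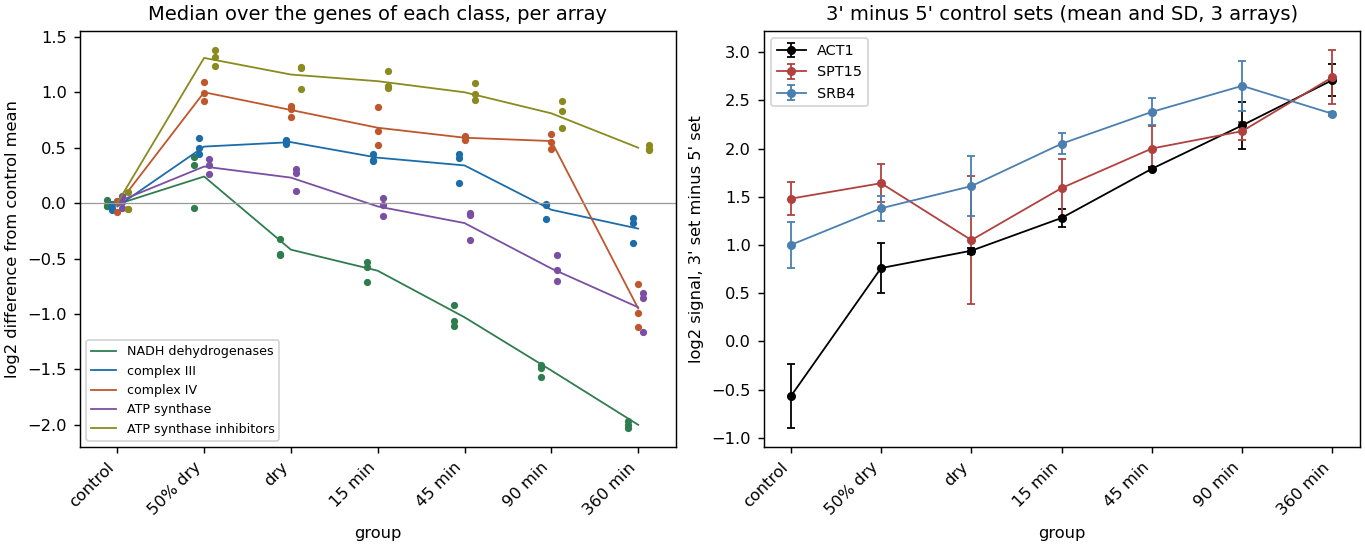
Left, median over the genes of each class of the log2 difference from the control mean, per array (points) with the mean of 3 arrays (lines), by group; right, log2 signal of the 3' minus the 5' probe set of ACT1, SPT15 and SRB4 (mean and SD of 3 arrays). On the quantile-normalised values complex IV has a mean of 0.56 at 90 min and of -0.95 at 360 min. The ACT1 gap widens from one group mean to the next and ends at 2.71.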

How the data were processed

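The deposited table holds linear probe-set intensity values of 21 arrays. GeneChip software, a signed rank test and a linear mixed model made them, per the labels. How the arrays were scaled, and the build, is not given in the sources used here. With 2% cut from each end, array means were 500.2 to 500.5. Run records deposited with the arrays gave 6 hybridization runs on 3 scan days.

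Probe sets were named from the platform annotation and matched to RefSeq symbols (34 of 34 members). Of 9335 probe sets, 60 control sets were left out. Of the others 6504 name 1 gene, 328 several and 2443 none. To each intensity 17.74 was added, 10% of the overall median of 177.4, before log2 and quantile normalisation. limma 3.58.1 in R 4.3.3 fitted 7 group means over 21 arrays, with a variance trend (14 residual and 4 prior degrees of freedom), two-sided, with Benjamini-Hochberg adjustment over 9275 probe sets. The fit was also run on simulated data with known changes, built from the means and residual spread of these arrays, with an outcome not given here. Pairs of genes were set against each other as log2 ratios of quantile-normalised values within arrays, and the sizes hold for that scale only. An exact permutation test of 3 against 3 arrays can give no p below 0.1. Each pair gave 0.1, so no conclusion is drawn from that test. Python 3.11.15, numpy 2.4.6, pandas 2.3.3, scipy 1.17.1 and matplotlib 3.10.9 handled tables and plots. Precision is limited by 3 arrays per group.

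The members, their classes and the other gene lists were chosen with earlier results of these data known. All 34 members are named; values on each array are given for the NADH dehydrogenases, the inhibitors, the members of each class called most often, and further members that a statement turns on, which were chosen after their values were seen. The alternatives tried are those given under the dependence on processing. Promoter motifs were not searched, since no promoter sequence was used here.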

Additional observations from a re-analysis of the deposited data

How the results depend on the processing

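Of 63 called results of single members, 63 kept call and direction with 1% of the median added, without the variance trend, without a fold minimum, with only the compared arrays, after dropping the dimmest 20%, with a gene's probe sets averaged and with the replicate block, which left the 18 falls of 360 min against dry cells at 18. With 50% of the median added 7 were lost, in the deposited scaling 5, and with median-centred arrays 14, all toward smaller changes. Median-centred arrays left 3 members called in 50% dry and in dry against control cells and 4 in 90 min against dry cells. Without the 2-fold minimum the calls numbered 27 (57.4% of all probe sets) in 50% dry against control. They numbered 7 (35.1%) in dry against 50% dry and 29 (64.4%) in dry against control. The 3 steps up to 90 min gave 1 (0.776%), 1 (1.02%) and 8 (4.7%), and 360 against 90 min gave 23 (40.3%). There were 30 (58.9%) in 360 min against dry, 26 (70.7%) in 360 min against control and 20 (29.1%) in 90 min against dry cells. The counts of 0 thus rest on that minimum. Leaving out each array gave 5 to 6 calls in 50% dry against control, 4 to 5 in dry against control, 4 to 6 in 360 against 90 min, 18 in 360 min against dry, 17 to 18 in 360 min against control, 10 to 11 in 90 min against dry cells, 0 in the other steps, and 34 in the F test. The hybridization run as a block gave 0 in the 3 steps whose groups share runs. The F test called 32 of 34 with median-centred arrays. Same-numbered arrays did not deviate together (correlations of -0.244 to 0.243), which cannot settle whether the numbers pair samples. Rises made up 42.5% and 78.5% of all calls in 360 against 90 min under the deposited and the centred scaling, against 55.4% here, and 26.9% and 63.8% in 90 min against dry cells, against 45.0%. In the steps of 15 against dry, 45 against 15 and 90 against 45 min the shares were 27.8%, 33.3% and 40.0% deposited, 45.5%, 50.0% and 50.0% centred, and 45.5%, 57.1% and 37.5% here. With 3 arrays per group, differences near 2-fold are not firmly placed on either side of it.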

Other observations

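Genes that work beside the 34 were read in the same fits. In 50% dry cells against control cells 0 of 6 partner subunit and cytochrome c genes rose and 3 fell: CYC1, the main cytochrome c gene, at -3.14 ± 0.15, CYC7, the second cytochrome c gene, at -1.80 ± 0.22, and COX5B, the low-oxygen form of a complex IV subunit, at -1.65 ± 0.19. Over all probe sets 13.1% rose and 13.9% fell in that comparison. CYC1 had normalised signals of 106, 102 and 102 in 50% dry cells, against 1169, 925 and 1073 in control cells, without overlap. Of 4 succinate dehydrogenase genes 2 rose, SDH3 at 2.14 ± 0.17 and SDH2 at 1.04 ± 0.15, the second of which came to 0.84 in the deposited scaling and 0.65 with median-centred arrays and was then not called. Of 3 other dehydrogenases that feed the chain 2 rose, CYB2, for lactate oxidation, at 2.92 ± 0.16 and GUT2, for glycerol 3-phosphate, at 1.24 ± 0.11, which was not called in either other scaling (0.80 with median-centred arrays). Of 24 assembly genes for complexes III and IV 2 rose and 4 fell, a share near that of all probe sets, and of 6 for ATP synthase 0 were called, and of 4 carrier genes AAC1 rose, at 2.66 ± 0.09, and AAC3 fell. HAP4, the activating subunit of the HAP complex that drives many respiratory genes, rose by 1.58 ± 0.12, to 4536, 4627 and 4067, against 1445, 1527 and 1427 in control cells, the one of 5 regulator genes called. It then fell in dry cells, at 1279, 1223 and 1244, by 1.80 ± 0.12 on the log2 scale against 50% dry cells. In that step 0 of the 34 members were called, although 7 had an adjusted p under 0.05 by limma. A link between HAP4 and the members was not tested.

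At 360 min against dry cells, where 11.4% of all probe sets rose and 11.7% fell, 4 of 6 partner genes fell, 2 of them also with median-centred arrays. The largest fall was that of COX5A, the aerobic form of the same complex IV subunit, at -2.79 ± 0.10. It had 326, 365 and 317 at 360 min, against 2357, 2244 and 2675 in dry cells. All 4 succinate dehydrogenase genes fell, SDH2 most at -2.12 ± 0.15, but with median-centred arrays SDH3 came to -0.97 and SDH4 to -0.81 and only 2 were called. Of 24 assembly genes for complexes III and IV 4 fell and 2 rose, OXA1, which inserts proteins into the inner membrane, at 1.71 ± 0.18 and COX18 at 1.11 ± 0.12 (0.69 in the deposited scaling), again close to the share of all probe sets. In the deposited scaling 8 of the 24 fell and 1 rose, where 1717 of all 9275 probe sets fell and 866 rose. Of 6 ATP synthase assembly genes only ATP12 fell, at -1.30 ± 0.30. HAP1 also rose, at 1.01 ± 0.20, on a probe set whose probes may be shared with other sequences. AAC1, a minor ADP/ATP carrier gene of the inner membrane, stood at 2.91 ± 0.09 at 360 min against control cells. All adjusted p-values for the genes named here were 0.00119 or lower by limma with Benjamini-Hochberg adjustment. Each kept its sign in the deposited scaling and with median-centred arrays, though not each its call, as given above.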
